A study of Mus musculus with 4 samples.

Results

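Heme breakdown and iron handling were followed through 10 genes of 35275 in the deposited table, chosen by name as the heme oxygenases, biliverdin reductases, ferritin chains, ferrochelatase and iron transporters: Hmox1, Hmox2, Blvra, Blvrb, Fth1, Ftl1, Fech, Slc40a1, Tfrc and Slc11a2. All 10 were present and all 10 passed the filter on low values. The samples are lung tumours of Balb/c mice, 2 from mice of genotype Nrf2 -/- (Nrf2 KO) and 2 from mice of genotype Nrf2 +/+ (WT). Mice of either genotype had received vinyl carbamate, a chemical lung carcinogen, at 16 mg/kg in 2 or 4 doses, and tumours were taken 40 to 44 weeks after it was first given. Each library is a pool of 3 to 4 tumours, and the labels do not say how many doses, weeks or tumours belong to which library, nor the age of the animals. The labels name no cell type or promoter that would limit the deletion, so that tumour cells, immune cells and stroma in a pool are taken to share the genotype.

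Heme oxygenase opens the heme ring to biliverdin, carbon monoxide and free iron; biliverdin reductase turns biliverdin into bilirubin; ferritin, a shell of heavy and light chains, stores the iron; and ferroportin, encoded by Slc40a1, is the exporter that carries it out of the cell. NRF2, the protein of the gene Nfe2l2, is a transcription factor that binds antioxidant response elements with small MAF partners, and work in mouse and human cells has placed heme oxygenase 1, the ferritin chains, the biliverdin reductases, ferrochelatase and ferroportin among its targets. BACH1, a repressor that heme removes from DNA, acts on several of the same sites. Iron itself acts on a further level, since iron regulatory proteins bind hairpins in some of these mRNAs, the iron-responsive elements (IREs), blocking translation when the hairpin is in the 5′ UTR and protecting the mRNA from decay when it is in the 3′ UTR.

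The IRE hairpin is shown because mRNA levels of the genes that carry it are only a part of their control by iron. Transcripts were searched for the loop CAGTGN with 5 bases on each side that can pair with each other and an unpaired C before them. In the UTRs of 21901 protein-coding genes, 0.731% held such a hairpin, and 4 of the 10 genes did: Fth1, Ftl1 and Slc40a1 in the 5′ UTR and Tfrc, at 4 places, in the 3′ UTR. The 30-base windows are given 5′ to 3′ as the DNA letters of the transcript, with the loop in capitals. They come from the GENCODE annotation of GRCm38 and lie at chr19:9982731-9982760 on the plus strand for Fth1, chr7:45459779-45459808 on the minus strand for Ftl1 and chr1:45925465-45925494 on the minus strand for Slc40a1. The Tfrc windows lie on the plus strand, in order at chr16:32631218-32631247, chr16:32631597-32631626, chr16:32631662-32631691 and chr16:32631709-32631738.
Fth1: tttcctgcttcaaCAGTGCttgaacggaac
Ftl1: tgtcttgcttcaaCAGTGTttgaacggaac
Slc40a1: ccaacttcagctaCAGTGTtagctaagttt
Tfrc, hairpin 1: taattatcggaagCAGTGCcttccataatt
Tfrc, hairpin 2: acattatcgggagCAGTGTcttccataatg
Tfrc, hairpin 3: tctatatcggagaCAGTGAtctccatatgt
Tfrc, hairpin 4: taattatcgggaaCAGTGTttcccataatt
The windows of the ferritin chains differed at 3 of 30 positions. A match describes the letters, and no binding was measured. Hairpins that depart from this pattern were not searched for, so a gene without a match may still carry an IRE.

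Promoter windows, from 250 bases before to 50 bases after a start site in RefSeq (GRCm38.p6), were listed for 6 of the 10 genes; those of Hmox1, Fech, Slc40a1 and Slc11a2 were not analysed here. The core of the antioxidant response element, TGACNNNGC, searched on both strands, was in the window of 1 of them, Blvra, and in those of 14% of the 27025 genes with an entry. The core base farthest from the RefSeq start of Blvra lies 49 bases before it. The core reads on the strand opposite to the gene, within chr2:127070598-127070626 on the minus strand, and is given in capitals.
Blvra: ggcggagcctTGACCGAGCaattcccgtg
NRF2 sites farther from a start were not analysed here.

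Levels are FPKM, read counts scaled to gene length and to the size of the library, which allows levels of different genes to be set side by side. The libraries held 17.98 and 16.89 M reads (1 M is 1e6) for Nrf2 KO 1 and 2 and 21.66 and 21.22 M for WT 1 and 2, as the values imply. Nfe2l2 itself was at 3.66 and 2.96 FPKM in Nrf2 KO tumours against 96.3 and 87.9 FPKM in WT tumours, which matches the labels (log2 fold change -4.44 ± 0.13 SE, limma adjusted p = 0.000378). Of the surfactant genes and other markers of alveolar type 2 cells, all 10 were tested and none was listed at 0. Their summed level, most of it Sftpc, was 121446 and 105986 FPKM in Nrf2 KO tumours and 109949 and 110541 FPKM in WT tumours. With limma, 0 of these 10 markers passed an adjusted p of 0.05. At an unadjusted p under 0.05, 1 was higher (Napsa) and 1 lower (Lpcat1), against 8.36% and 7.01% of all genes tested.

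By their estimated fold changes, the heme breakdown and iron handling genes were close to their WT level in tumours without Nrf2, with 1 exception. Slc40a1, the gene of the iron exporter ferroportin, was at 0.579 times its WT level and had the largest difference of the 10, though its adjusted p did not pass 0.05. In the main fit the other 9 had log2 fold changes between -0.18 and 0.19, with 95% intervals that reached from 0.637 to 1.57 times WT. With other settings or a library left out they ran wider, as far as -0.37 for Ftl1 and 0.29 for Fth1. With limma on log2(FPKM + 1) and Benjamini-Hochberg adjustment over 13147 genes, 0 of the 10 passed an adjusted p of 0.05, as did 0.114% of all genes tested. At an unadjusted p under 0.05, 1 of the 10 was lower (Slc40a1) and 0 were higher, against 7.01% and 8.36% of all genes tested. Both Nrf2 KO libraries lay below both WT libraries for 3 of the 10 and above them for 3, against 25.4% and 22.7% of all genes tested (48.1% in either direction). The median log2 fold change of the 10 was -0.07 and that of all genes tested -0.00. In bulk tumour RNA, fewer cells of a type and less RNA per cell cannot be told apart.

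**Figure D1:**
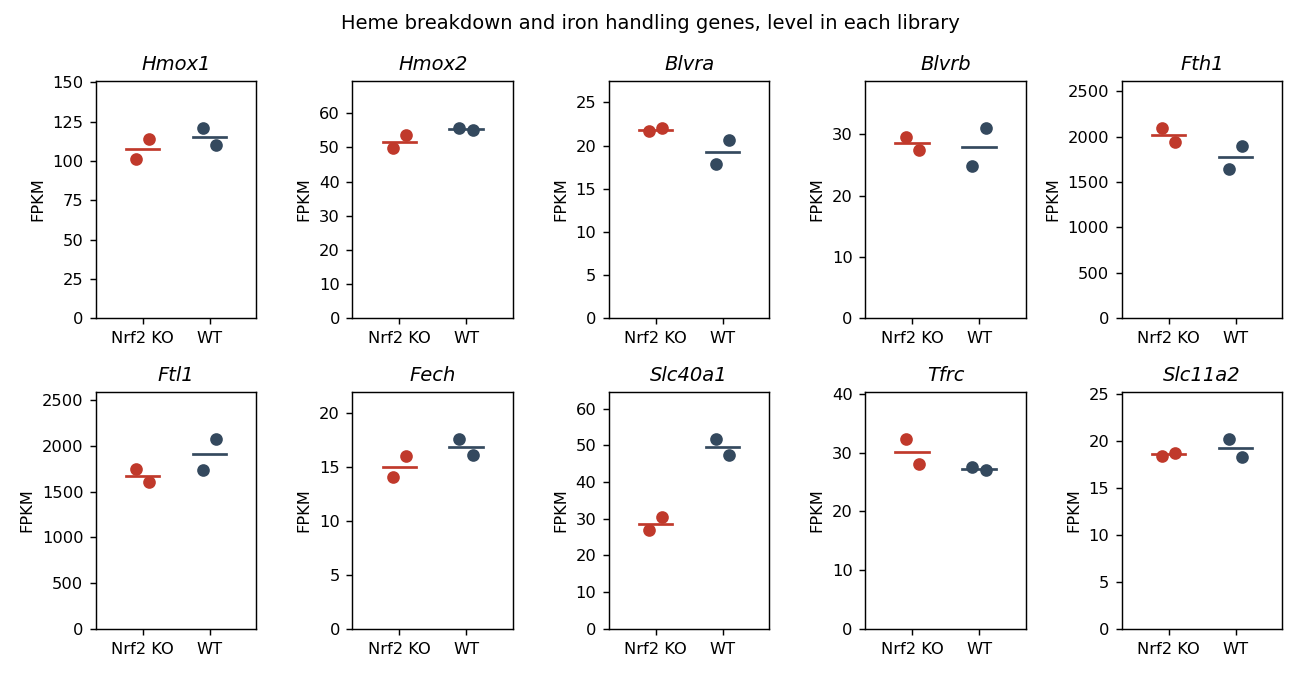
Level of each of the 10 genes in FPKM (vertical axes, from 0) in the Nrf2 KO libraries (red, left) and WT libraries (dark, right); each point is 1 library and each line the mean of 2. The groups are widest apart, relative to their level, for Slc40a1, at 27.0 and 30.4 FPKM in Nrf2 KO against 51.7 and 47.4 FPKM in WT.

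Hmox1, the gene of the stress-inducible heme oxygenase (chromosome 8, 75093621 to 75100589, plus strand), was at 101 and 114 FPKM in Nrf2 KO 1 and 2 and at 121 and 110 FPKM in WT 1 and 2. The groups overlapped, with Nrf2 KO 2 above WT 2. The log2 fold change was -0.10 ± 0.12 (SE), and its 95% interval covered 0.765 to 1.14 times the WT level (limma adjusted p = 0.727). Hmox2, the constitutive heme oxygenase (chromosome 16, 4726361 to 4766742, plus strand), was at 49.7 and 53.5 FPKM in Nrf2 KO tumours and at 55.5 and 55.1 FPKM in WT tumours. Its Nrf2 KO libraries were both below the WT libraries, and the interval included equal levels (log2 fold change -0.10 ± 0.10 SE, 95% interval 0.786 to 1.11 times WT, limma adjusted p = 0.678). Exons of Hmox2 overlap those of Cdip1 on the opposite strand, and since strand use is not given, reads of the overlap could belong to either gene. The same holds for Slc11a2 and Gm5475 and for Ftl1 and Gm10252. Exons of Ftl1 also overlap those of Gm22133 on the same strand, where strand use could not tell the reads apart. Hmox1 stood at about the same multiple of Hmox2 in either genotype, with a ratio of 2.08 ± 0.0659 in Nrf2 KO and 2.09 ± 0.124 in WT tumours (SD, n = 2 each).

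Blvra, a biliverdin reductase that makes bilirubin from the biliverdin of adult heme breakdown (chromosome 2, 127070665 to 127097084, plus strand), was at 21.7 and 22.0 FPKM in Nrf2 KO tumours and at 17.8 and 20.7 FPKM in WT tumours. Both Nrf2 KO libraries were higher, and the interval included equal levels (log2 fold change 0.18 ± 0.12 SE, 95% interval 0.928 to 1.38 times WT, limma adjusted p = 0.513). Blvrb, the second enzyme, a flavin reductase abundant in red blood cells (chromosome 7, 27447978 to 27466144, plus strand), was at 29.5 and 27.5 FPKM in Nrf2 KO tumours and at 24.9 and 30.9 FPKM in WT tumours. The WT libraries lay on either side of the Nrf2 KO libraries, and the log2 fold change of 0.04 ± 0.13 (SE; limma adjusted p = 0.922) turned to -0.014 without Nrf2 KO 1 and to -0.12 without WT 1. These genes rest on the fewest reads of the 10, down to 347 in Nrf2 KO 2 for Blvrb, for which counting alone gives an error of 5.37%.

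The ferritin genes were by far the most abundant of the 10. By FPKM, Fth1 ranked 23rd in both Nrf2 KO libraries, and 24th and 26th in WT 1 and 2, among all genes of the table. Ftl1 ranked 31st and 28th in Nrf2 KO 1 and 2 and 21st in both WT libraries. No other of the 10 went above 121 FPKM in any library. Fth1, the heavy chain with the ferroxidase site (chromosome 19, 9980598 to 9985098, plus strand), was at 2090 and 1943 FPKM in Nrf2 KO tumours and at 1648 and 1896 FPKM in WT tumours. Both Nrf2 KO libraries were higher, Nrf2 KO 2 only just (log2 fold change 0.19 ± 0.19 SE, 95% interval 0.828 to 1.57 times WT, limma adjusted p = 0.673). Ftl1, the light chain, which helps the iron core to form (chromosome 7, 45457944 to 45459884, minus strand), was at 1746 and 1603 FPKM in Nrf2 KO tumours and at 1740 and 2072 FPKM in WT tumours. Its groups overlapped at Nrf2 KO 1 and WT 1, and the log2 fold change was -0.18 ± 0.19 (SE; 95% interval 0.637 to 1.22 times WT, limma adjusted p = 0.687).

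Set against each other within a library, the ferritin chains differed between the genotypes more evenly than either chain alone. The ratio of Fth1 to Ftl1 was 1.20 and 1.21 in Nrf2 KO 1 and 2, against 0.947 and 0.915 in WT 1 and 2. By FPKM, heavy-chain mRNA was 54.5% and 54.8% of the sum in the Nrf2 KO libraries and 48.6% and 47.8% in the WT libraries. Which chain is the larger depends on the gene lengths behind FPKM, for which only the smallest that fitted was found. In recovered reads, Fth1 held 30919 and 34850 in WT 1 and 2 and Ftl1 30533 and 35617. In Nrf2 KO 1 and 2, Fth1 held 32536 and 28421 reads and Ftl1 25415 and 21933. The mean ratio was 1.29 times as high in Nrf2 KO tumours, and the spread within a genotype was small beside it (1.20 ± 0.0103 against 0.931 ± 0.0226, SD, n = 2 each). A ratio within a library does not change when all genes of that library are scaled by the same factor, though quantile normalization can change it. The ratio was chosen after its values were seen, and the smallest two-sided p that an exact permutation test of 4 such libraries can give is 0.333. The sum of the chains overlapped, at 3836 and 3546 FPKM in Nrf2 KO and 3389 and 3969 FPKM in WT tumours. A ratio without overlap was not particular to ferritin. Blvra over Blvrb was at 0.736 and 0.801 in Nrf2 KO and 0.717 and 0.669 in WT libraries.

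**Figure D2:**
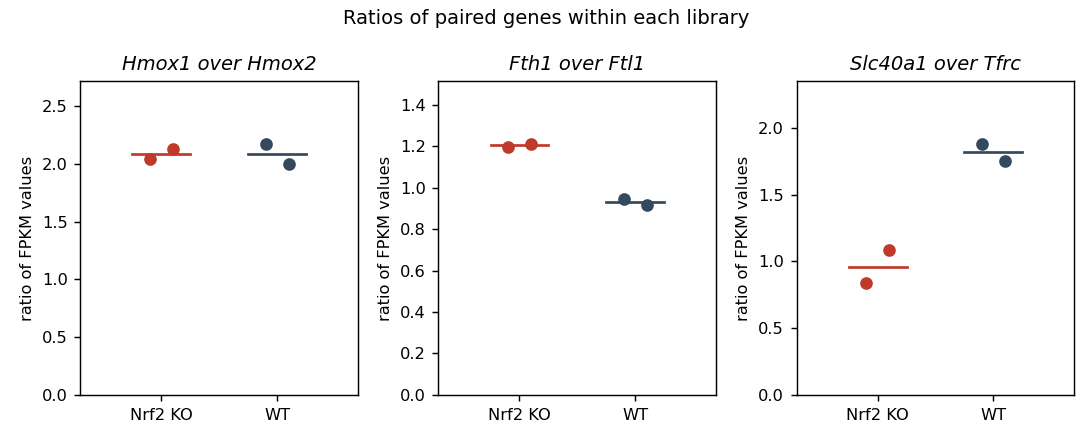
Ratio of the FPKM values of 2 genes within each library (vertical axes, from 0) in Nrf2 KO (red, left) and WT (dark, right); points are libraries and lines the mean of 2. Hmox1 over Hmox2 overlaps between genotypes, Fth1 over Ftl1 is at 1.20 and 1.21 against 0.947 and 0.915, and Slc40a1 over Tfrc at 0.837 and 1.08 against 1.88 and 1.75.

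Copies of ferritin genes could bear on these levels. Transcripts of 7 other genes matched Ftl1 over at least 200 bases at 90% identity or more, the closest being Ftl1-ps1, at 99.6% over 910 bases. In the table these 7 copies together held 32 and 18 reads in Nrf2 KO 1 and 2 and 25 and 36 in WT 1 and 2, at most 0.126% of the reads of Ftl1 in a library. For Fth1, 1 such copy was found, Gm6977, listed at 0 in all 4 libraries. How reads shared between copies were counted is not given in the sources used here, so that the levels of Ftl1 and Fth1 may include reads of copies.

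Fech, ferrochelatase, the mitochondrial enzyme that inserts iron into the ring in the last step of heme synthesis (chromosome 18, 64452914 to 64490251, minus strand), was at 14.0 and 16.0 FPKM in Nrf2 KO tumours and at 17.5 and 16.1 FPKM in WT tumours. Both Nrf2 KO libraries were lower, Nrf2 KO 2 by a small margin (log2 fold change -0.16 ± 0.12 SE, 95% interval 0.732 to 1.10 times WT, limma adjusted p = 0.577).

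Slc40a1 (chromosome 1, 45908068 to 45926523, minus strand) was at 27.0 and 30.4 FPKM in Nrf2 KO 1 and 2, against 51.7 and 47.4 FPKM in WT 1 and 2. The reads behind these values were 734 and 775 in Nrf2 KO and 1691 and 1519 in WT libraries. The gap between the genotypes, 30.4 to 47.4 FPKM, was several times the difference within either of them. The log2 fold change was -0.77 ± 0.11 (SE), with a 95% interval of 0.485 to 0.711 times the WT level, the only interval of the 10 that did not include equal levels. Slc40a1 ranked 63rd of 13147 genes by p-value (unadjusted p = 0.000469, limma adjusted p = 0.0978). Leaving out any 1 library gave log2 fold changes from -0.85 to -0.69 and called it in 0 of 4 fits.

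Tfrc, the transferrin receptor, through which cells take up iron from the blood (chromosome 16, 32608920 to 32632794, plus strand), was at 32.3 and 28.0 FPKM in Nrf2 KO tumours and at 27.5 and 27.1 FPKM in WT tumours. Both Nrf2 KO libraries were higher, Nrf2 KO 2 by under 1 FPKM (log2 fold change 0.14 ± 0.11 SE, 95% interval 0.907 to 1.33 times WT, limma adjusted p = 0.607). Slc11a2, the divalent metal transporter that moves iron out of endosomes (chromosome 15, 100387898 to 100425072, minus strand), was at 18.4 and 18.7 FPKM in Nrf2 KO tumours and at 20.2 and 18.3 FPKM in WT tumours. Its groups overlapped, and the log2 fold change of -0.05 ± 0.11 (SE; 95% interval 0.805 to 1.16 times WT, limma adjusted p = 0.868) was 0.018 without WT 1. Slc40a1 was at 0.837 and 1.08 times Tfrc in Nrf2 KO and at 1.88 and 1.75 times in WT libraries, a ratio likewise chosen after its values were seen. The mean ratio in Nrf2 KO was 0.529 times that in WT, and Slc40a1 alone was at 0.579 times WT. The ratio is thus not a separate result from the Slc40a1 values.

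**Figure D3:**
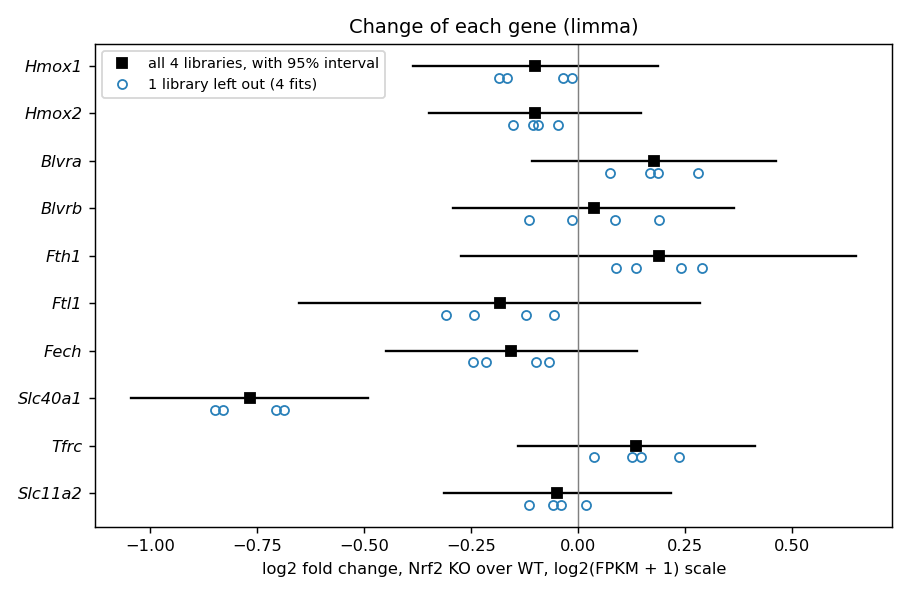
Log2 fold change of Nrf2 KO over WT on the log2(FPKM + 1) scale (horizontal axis) for each of the 10 genes; squares are the limma estimates with bars for the 95% interval, and open circles the estimates with 1 library left out. The Slc40a1 interval lies wholly below 0 and the other 9 include 0.

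Ferroportin is known from macrophages that recycle iron, and their markers were read in the same libraries. Of 12 pan-macrophage markers tested 0 were called, and none was listed at 0 in all libraries. At an unadjusted p under 0.05, 2 of the 12 were higher and 0 lower, against 8.36% and 7.01% of all genes tested. The summed level of the 12 was 596 and 691 FPKM in Nrf2 KO and 549 and 554 FPKM in WT tumours. Of 11 alveolar macrophage markers 0 were called. At an unadjusted p under 0.05, 3 of the 11 were higher and 2 lower, against the same 8.36% and 7.01%. The sum of the 11 was 1022 and 1647 against 958 and 854 FPKM. Much of that sum was Chil3, at 487 and 1029 FPKM in Nrf2 KO against 526 and 436 FPKM in WT tumours. The groups of Chil3 overlapped. The 3 higher were the lipid chaperone Fabp4, at 62.9 and 121.9 FPKM in Nrf2 KO against 41.7 and 34.3 FPKM in WT tumours, the protease Ctsk, at 78.5 and 68.7 against 37.5 and 39.6 FPKM, and the ribonuclease Ear2, at 216 and 220.0 against 139.7 and 149 FPKM. The 2 lower were Pparg, a transcription factor, at 6.72 and 6.56 FPKM in Nrf2 KO against 10.4 and 10.5 FPKM in WT tumours, and the scavenger receptor Marco, at 3.78 and 1.34 against 20.9 and 15.4 FPKM. The part of macrophages in the Slc40a1 difference was not tested.

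Red blood cells and their precursors hold Blvrb, Fech, Tfrc and ferritin mRNA. The 4 haemoglobin genes Hba-a1, Hba-a2, Hbb-bs and Hbb-bt summed to 1186 and 1084 FPKM in Nrf2 KO tumours against 244 and 486 FPKM in WT tumours. All 4, and Alas2, lay higher in both Nrf2 KO libraries, as did 22.7% of all genes tested. Of the erythroid markers, 5 were tested and 0 were called. At an unadjusted p under 0.05, 5 were higher and 0 lower, against 8.36% and 7.01% of all genes tested. Epb42, which encodes a red cell membrane protein, was listed at 0 in 3 of the 4 libraries. The median log2 fold change of the 4 haemoglobin genes was 1.54, and those of the genes named above were 0.04 for Blvrb, -0.16 for Fech, 0.14 for Tfrc, 0.19 for Fth1 and -0.18 for Ftl1. The part of red cells in these values was not tested.

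The wider pathway was described with 52 other genes, of which 40 were tested. Of these 0 were called in either direction, where 0.0761% of all genes tested were called higher and 0.038% lower. Without Nrf2 KO 1 the count was 1 (Alas2, limma adjusted p = 0.0364). At an unadjusted p under 0.05, 5 of the 40 were higher and 2 lower, where 8.36% and 7.01% of all genes tested were. The groups did not overlap for 10 higher and 12 lower, near the shares of all genes tested (22.7% and 25.4%). The median log2 fold change was -0.02, and 34 of the 40 lay within 0.5 of 0.

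In heme synthesis the largest difference was at the first step of the erythroid pathway. Alas2, the erythroid 5-aminolevulinate synthase, was at 7.63 and 9.45 FPKM in Nrf2 KO tumours and 2.11 and 3.33 FPKM in WT tumours (log2 fold change 1.37 ± 0.20 SE, limma adjusted p = 0.096), beside the haemoglobin genes given above. Alas1, which serves all other cells, was at 81.6 and 93.7 FPKM in Nrf2 KO and 105 and 94.8 FPKM in WT tumours. The 7 listed genes of heme synthesis besides Alas2 had log2 fold changes between -0.28 (Cpox) and 0.23 (Uros) and limma adjusted p-values between 0.487 and 0.749.

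Among genes that move or scavenge heme, Lrp1, an endocytic receptor that takes up heme bound to hemopexin among many ligands, was at 47.7 and 43.6 FPKM in Nrf2 KO tumours against 87.2 and 61.5 FPKM in WT tumours (log2 fold change -0.67 ± 0.18 SE, limma adjusted p = 0.197). The heme exporter Flvcr1 was at 5.91 and 5.91 FPKM against 7.72 and 7.02 FPKM, its relative Flvcr2 at 6.51 and 4.33 against 7.73 and 7.23 FPKM, and Slc48a1, which carries heme out of the lysosome, at 66.3 and 65.9 against 75.4 and 82.3 FPKM. Each of these had its Nrf2 KO libraries below its WT libraries and was not called. Pgrmc1, a heme-binding membrane protein, was on the other side, at 24.6 and 27.6 FPKM in Nrf2 KO and 15.7 and 19.3 FPKM in WT tumours (log2 fold change 0.55 ± 0.14 SE, limma adjusted p = 0.178). So was Hp, at 206 and 161 against 145 and 146 FPKM (log2 fold change 0.32 ± 0.15 SE, limma adjusted p = 0.374). Without overlap, 4 of the 7 tested genes of this list were lower and 2 higher, against 25.4% and 22.7% of all genes tested.

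Of the iron uptake genes, Lcn2, lipocalin 2, which binds iron-laden bacterial siderophores and is made by neutrophils and inflamed epithelium, was at 1804 and 2530 FPKM in Nrf2 KO tumours against 1471 and 1207 FPKM in WT tumours (log2 fold change 0.68 ± 0.24 SE, limma adjusted p = 0.27). The ferric reductases Steap2 and Steap3 were low, at 2.70 and 3.94 against 2.45 and 1.29 FPKM and at 2.02 and 3.43 against 1.63 and 1.60 FPKM. Of 7 neutrophil markers tested 3 were called, all higher (S100a8, S100a9 and Csf3r), where 0.0761% of all genes tested were called higher. The 4 not called were Cxcr2, Retnlg and Mmp9, at log2 fold changes of 1.35, 1.86 and 0.89, and Mmp8, at -0.03. At an unadjusted p under 0.05, 6 of the 7 were higher and 0 lower, against 8.36% and 7.01% of all genes tested. The list had a summed level of 102 and 116 FPKM in Nrf2 KO against 29.2 and 30.2 FPKM in WT tumours. The 3 markers that were not tested for low values were Ngp, at most 0.411 FPKM in a library, Camp, listed at 0 in Nrf2 KO 2 and WT 2, and Ly6g, listed at 0 in both Nrf2 KO libraries. The part of neutrophils in the Lcn2 values was not tested.

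Hepcidin, the hormone that removes ferroportin from the cell surface, was low: Hamp and Hamp2 stayed at or below 0.24 FPKM in every library. Bmp6, a ligand that induces hepcidin in liver, was at 4.06 and 2.68 FPKM in Nrf2 KO tumours against 1.46 and 0.743 FPKM in WT tumours (log2 fold change 1.06 ± 0.24 SE, limma adjusted p = 0.167). Endothelial cells are a known source of Bmp6. Of 10 endothelial markers 0 were called, with sums of 179 and 269 FPKM in Nrf2 KO and 201 and 108 FPKM in WT tumours. Of 8 fibroblast markers 7 were tested and 0 were called. The fibroblast list summed to 459 and 737 FPKM in Nrf2 KO and 490 and 328 FPKM in WT tumours. At an unadjusted p under 0.05, 3 of the 10 endothelial and 2 of the 7 fibroblast markers (Dcn and Mfap4) were higher. In either list 0 were lower, and of all genes tested 8.36% were higher and 7.01% lower. The part of these cells in the Bmp6 values was not tested.

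Of the genes that sense iron, Aco1, which encodes iron regulatory protein 1, the cytosolic aconitase that binds IREs when it lacks its iron-sulfur cluster, was at 126 and 149 FPKM in Nrf2 KO tumours and at 178 and 165 FPKM in WT tumours (log2 fold change -0.32 ± 0.13 SE, limma adjusted p = 0.318). Ireb2, the gene of iron regulatory protein 2, overlapped between the genotypes, at 13.1 and 14.8 FPKM in Nrf2 KO and 17.3 and 13.7 FPKM in WT tumours. Bach1, the heme-sensing repressor, was at 30.4 and 29.9 FPKM in Nrf2 KO and 36.5 and 34.1 FPKM in WT tumours (log2 fold change -0.22 ± 0.10 SE, limma adjusted p = 0.378). Ncoa4, which delivers ferritin for breakdown, was at 28.3 and 28.1 FPKM in Nrf2 KO and 29.0 and 27.7 FPKM in WT tumours.

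**Figure D4:**
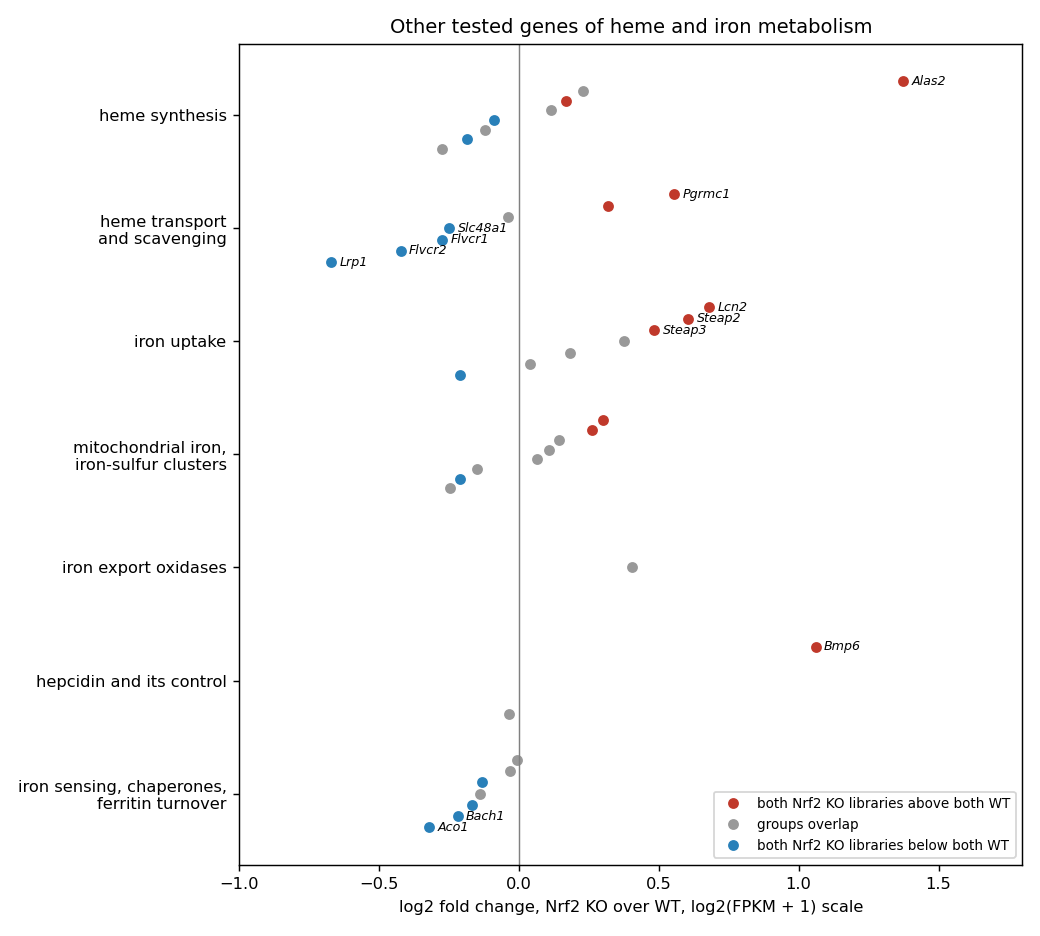
Log2 fold change of Nrf2 KO over WT on the log2(FPKM + 1) scale (horizontal axis) for the 40 tested genes of heme and iron metabolism besides the 10, grouped by role (vertical axis); red marks genes with both Nrf2 KO libraries above both WT libraries, blue those with both below, and grey those whose groups overlap. Alas2 lies farthest to the right at 1.37 and Lrp1 farthest to the left at -0.67.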

How the data were processed

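The deposited table holds 1 value per gene and library, which the values show to be FPKM made by the authors: for 21600 of 21601 genes above 0, they equal whole reads times a constant of the library over a whole-number length (tolerance 0.0002 reads, with 2e-09 of the count and the file's rounding added). For all 10 genes the length was the smallest that fitted, so their reads could be undercounted. The submitters' processing notes name mm10, TopHat2 and DESeq2 with neither roles nor versions; for the counter, annotation and strand use the sources are silent (not given in the sources used here). Symbols and coordinates are from GENCODE M21 (GRCm38), which matched 34490 of 35275 identifiers.

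Nrf2 KO was set against WT on log2(FPKM + 1) with limma 3.58.1 (R 4.3.3, intensity trend) for genes that reached 1 FPKM in at least 2 libraries; low genes' folds are understated. Calls needed a Benjamini-Hochberg adjusted p below 0.05. Residual degrees of freedom were 2 and the prior added 4.12, and p-values measure the spread between these 4 samples, which the series design describes as separate mice; the labels give no batch. The 10 genes, the pathway and marker lists and the tests were chosen with earlier results of these data known. Pathway genes were named if called. Others were named if among the 6 largest differences in a direction, with groups that do not overlap and a mean FPKM of at least 1. Alas1, Hp, Ireb2, Ncoa4 and the single marker genes were named after their values were seen. An erythroid marker is not reported here. Copies were found with BLAST+ 2.17.0. The fit was tested on simulated data with seeded changes larger than any of the 10 genes showed, so its handling of smaller changes was not tested. Alternatives were quantile normalization, no trend, no filter, a filter at 5 FPKM, a pseudocount of 0.1 or of 10, a block for replicate number, each library left out, and limma-voom on the recovered reads.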

Additional observations from a re-analysis of the deposited data

How the results depend on the processing

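None of the 10 genes was called in any of the 12 alternatives. Over all of them Slc40a1 ran from -0.85 to -0.62 (limma adjusted p from 0.076 to 0.321, highest with no filter on low values). Directions turned for 2 of the 10 when a library was left out: Blvrb ranged from -0.12 to 0.19 and Slc11a2 from -0.11 to 0.018. Ftl1 was at -0.37 (limma adjusted p = 0.263) with quantile normalization, where 2 of the 10, Slc40a1 and Ftl1, had an unadjusted p under 0.05, against 1 under each other setting. The number of genes called over the whole table, 15 (10 higher, 5 lower), was 1 with no filter, 8 with limma-voom on recovered reads and 10 to 221 with a library left out (221 without Nrf2 KO 1, 49 without Nrf2 KO 2); with quantile normalization it was 6 higher and 5 lower. Pathway genes called were 0 or 1 with a library left out. The replicate block called 69 genes in all, 0 of the 10 and 1 pathway gene (Alas2, limma adjusted p = 0.0212); the labels give no pairing, and same-numbered libraries deviated from their group means with a correlation of -0.31 across genes. The cause of these shifts was not tested. Where 1 library is left out, the lone library is assumed to vary like the other genotype. Precision was limited by 2 libraries a genotype: 9 of the 10 intervals include equal levels, and those of Fth1 and Ftl1 are the widest on the fold scale.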
